A study of Mus musculus with 13 samples.

Results

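The genes described here encode the protein subunits of the mitochondrial ribosome. They were chosen by symbol, as the genes named Mrpl or Mrps followed by a digit that had at least 10 counts summed over 13 libraries of sorted mouse jejunal epithelial cells. All 78 such symbols met that minimum, of 21868 symbols in the count table, and all 78 also passed the filter on low counts, so they stood among the 14300 genes tested. By the subunit that holds the protein, 26 belong to the small subunit and 51 to the large subunit. Mrps36 is counted in neither, because its product has since been assigned to the 2-oxoglutarate dehydrogenase complex. By descent, 46 have a bacterial homologue and 31 are found in mitochondria alone.

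The mitochondrial ribosome translates the few proteins encoded by mitochondrial DNA, all of them subunits of the respiratory chain and ATP synthase. Its RNAs come from mitochondrial DNA, while all of its proteins are encoded in the nucleus, made in the cytosol and imported. The small subunit holds the decoding centre and binds the messenger, and the large subunit joins the amino acids and is tethered to the inner membrane. In the small intestine, oxidative phosphorylation supplies the absorptive cells that transport nutrients, and mitochondrial function also bears on the crypt cells that divide to replace them.

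The 5 groups were a control group (con, 3 libraries), breakfast skipping (BSF, 2), breakfast skipping combined with control (BSF_C, 3), lunch skipping (LSF, 3) and dinner skipping (DSF, 2). Feeding hours are given as zeitgeber time (ZT), in which ZT12 is the start of the dark phase under a usual lighting cycle. BSF mice were fed from ZT16 to ZT24, LSF mice in the windows ZT12 to ZT16 and ZT20 to ZT24, and DSF mice from ZT12 to ZT20, each for 2 weeks. The hours of con and BSF_C, the hour of sampling, and the strain and age of the mice are not given in the sources used here. In every group, cells that carried EpCAM and lacked CD3, B220, CD11b and CD45 were sorted, and polyadenylated RNA was sequenced. Libraries are labelled as biological replicates without saying whether each is 1 mouse, so p-values measure the spread between these libraries.

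The con libraries held 4851239 to 5202146 counts, and those of the feeding groups 7127769 to 8589351. The libraries of con were set apart by their markers. Their summed level of 9 skin keratinocyte markers was 493 to 587 CPM, which are counts scaled to a common library size,, against 4.17 to 6.32 elsewhere. Their 12 jejunal enterocyte markers summed to 6809 to 7654 CPM, against 24609 to 36986 in the other groups. No batch is labelled, so a difference between con and the rest cannot be told apart from a difference in how the con libraries were made. In comparisons among the 4 feeding groups, con enters only through the filter, the scaling and the estimate of spread that all libraries share. In bulk libraries such as these, fewer cells of a type and less RNA per cell cannot be told apart.

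The members took between 0.249% and 0.316% of all counts in a library. A member had from 183 to 13096 counts over all libraries, with a median of 2090. Compared per length, as CPM per kilobase of the median protein-coding transcript, the median member stood at 16.9, between the median of all genes tested (8.28) and those of the nuclear-encoded respiratory chain (23.5) and of cytosolic ribosomal proteins (63.8). Levels spread over 102-fold, although most of these proteins sit in the ribosome as a single copy. Mrpl34 (213 CPM per kilobase), Mrps34 (143) and Mrpl36 (123) were the highest. Mrpl34 and Mrpl36 encode small bacterial-type proteins of the large subunit, and Mrps34 a mitochondrion-specific protein of the small subunit. Mrps16 (2.10), Mrps18c (2.88) and Mrpl21 (2.89), all with bacterial homologues, were the lowest. The median was 15.7 for small-subunit and 17.2 for large-subunit members.

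The clearest pattern among the feeding groups was a lower level of these genes under lunch skipping. Summed over the 78 members, the level was 2614, 2571 and 2593 CPM in the LSF libraries. It was 3010.1 and 2869 CPM in BSF, 3068, 3019.6 and 2995 in BSF_C, 2988 and 2905 in DSF and 2679, 2673 and 2947 in con. The 3 LSF libraries thus lay below all 10 others on this scale. As shares of raw counts, con 1 (0.249%) and con 2 (0.253%) lay below the LSF libraries (0.255% to 0.258%). The large-subunit sums of con, 1735 to 1923 CPM, overlapped those of LSF. Both subunits shared this order among the feeding groups. Small-subunit members summed to 809 to 828 CPM in LSF and to 916 to 985 in the other feeding groups. Large-subunit members summed to 1760.4 to 1784 and to 1951 to 2081. LSF had the lowest mean of the 4 feeding groups in 60 of 78 members (76.9%), against 33.0% of all genes tested, and the highest in 2. The level of 29 members (37.2%) was lower in all LSF libraries than in all libraries of BSF, BSF_C and DSF, a pattern found in 11.0% of all genes tested. The opposite pattern, found in 12.6% of all genes tested, held for 1 member, Mrpl39.

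**Figure D1:**
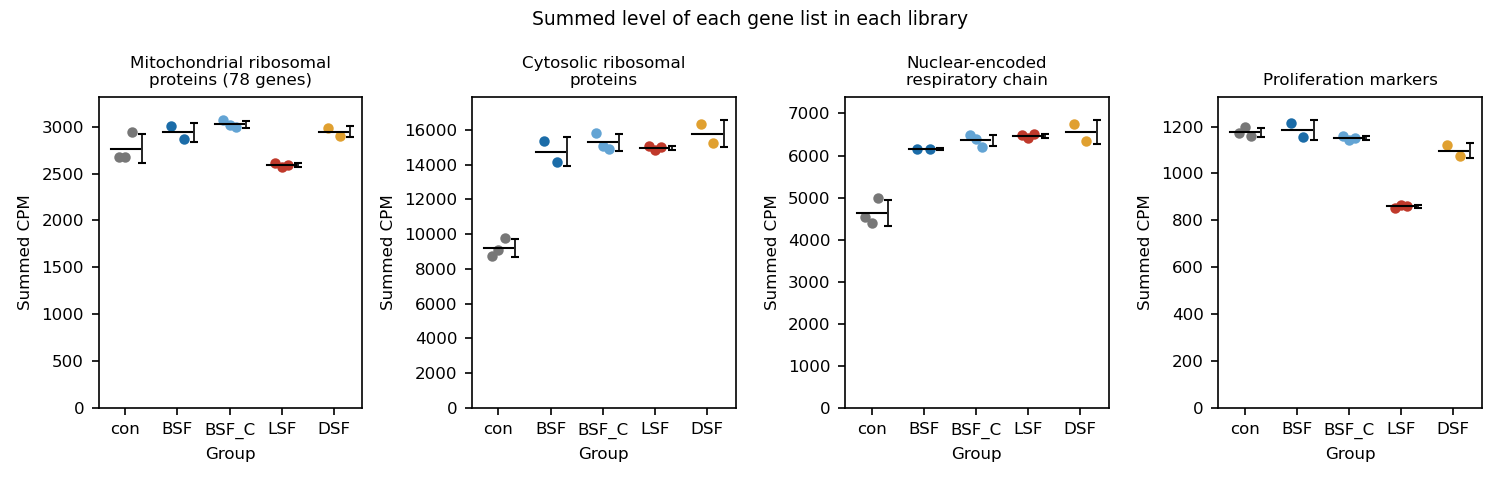
Summed CPM in each library (points), group mean (line) and SD (bar) for the 78 mitochondrial ribosomal protein genes, the cytosolic ribosomal proteins, the nuclear-encoded respiratory chain and 18 proliferation markers. The 3 LSF points are the lowest of the first and the last panel, while in the middle panels con is the lowest group.

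Gene by gene, the test called 18 of 78 members lower and 0 higher in LSF than in DSF. A gene was called where its adjusted p in edgeR's quasi-likelihood test fell under 0.05. Of all genes tested, 6.91% were called lower and 8.97% higher. At an unadjusted p under 0.05, edgeR had 26 members lower and 1 higher, and DESeq2 called 11 lower and 0 higher. Of all 14300 genes, DESeq2 called 766 lower and 1106 higher. For the unadjusted p, no count over all genes is given here. The members' median log2 fold change was -0.18, beside a median of -0.0004 over all genes. In comparisons added after seeing the data, 21 members were higher in BSF than in LSF and 1 was lower (13.4% and 15.9% of all genes). In BSF_C, 26 were higher than in LSF and 1 was lower (15.6% and 17.1%). These 3 comparisons share the LSF libraries. With con left out of the fit, 21 were lower and 1 higher in LSF than in DSF, 25 higher in BSF than in LSF, and 29 higher in BSF_C than in LSF. Calls over all 14051 genes then tested rose too, and were 1345, 1602, 2406 and 2641 in the same order. In the main fit they were 988, 1283, 1921 and 2225 of 14300. The number lower in LSF than in DSF depended on single libraries. It was 9 without LSF 2, where 730 of 14251 genes in all were lower. Leaving out a DSF library leaves a single one in that group, and fewer members were then called lower. Without BSF 1, which leaves a single BSF library, fewer members were called higher in BSF than in LSF. In each of these fits fewer of all genes were called in that direction too.

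By role, calls were spread over both subunits. Against DSF, 6 of 26 small-subunit and 12 of 51 large-subunit members were lower in LSF. Against BSF_C the counts were 9 of 26 and 17 of 51. Of members with bacterial homologues 9 of 46 were lower in LSF than in DSF, and of mitochondrion-specific members 9 of 31. The 16 members called lower in LSF in each of the 3 comparisons were Mrps2, Mrps5, Mrps7, Mrps27, Mrps34 and Mrps35 of the small subunit, and Mrpl9, Mrpl16, Mrpl19, Mrpl34, Mrpl36, Mrpl37, Mrpl38, Mrpl46, Mrpl51 and Mrpl53 of the large subunit. That is 20.5% of the members, a pattern found in 3.94% of all genes tested. A further 11 were called in 1 or 2 of them, so that 34.6% were called in at least 1, against 20.1% of all genes.

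**Figure D2:**
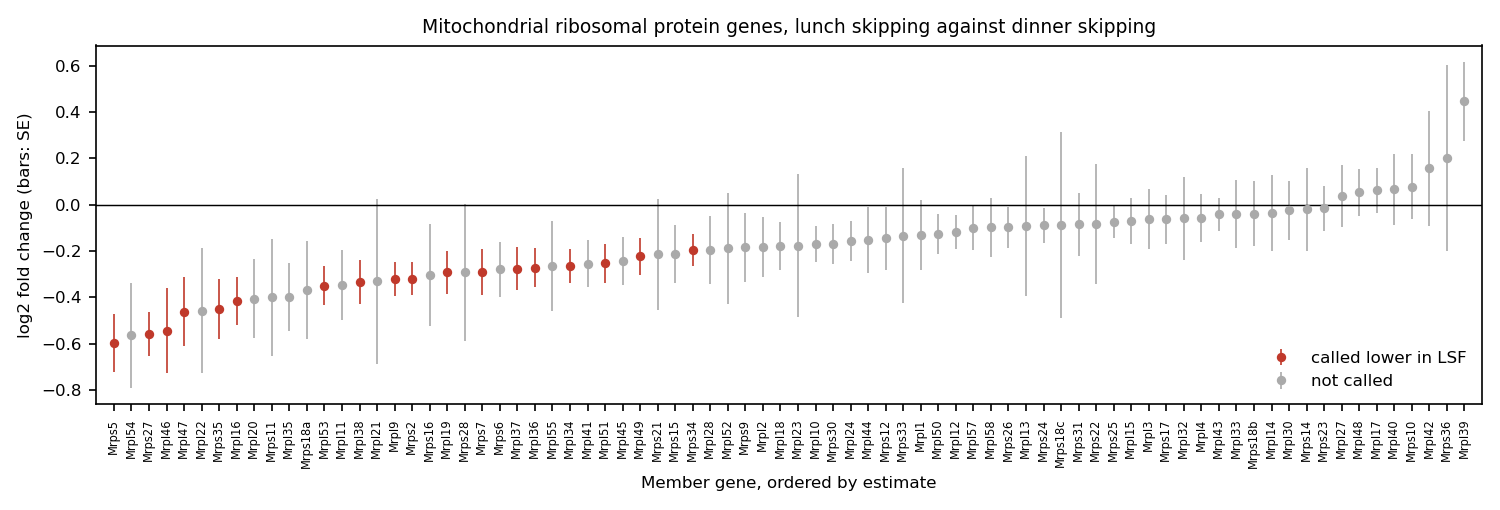
The log2 fold change of each of the 78 genes in LSF against DSF (points) with its SE (bars), ordered by estimate. Red points mark the 18 genes called lower in LSF, and 70 of the 78 estimates lie below 0.

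In the small subunit, Mrps5 (chromosome 2, 127587222 to 127606829, plus strand of GRCm38) and Mrps27 (chromosome 13, 99344786 to 99415562, plus strand) had the largest called falls in LSF against DSF. Mrps5 encodes the homologue of bacterial S5, which lies where the messenger enters the ribosome. Its level was 17.7, 18 and 18.2 CPM in LSF. The DSF libraries had 26.8 and 27.6 CPM, BSF 27.6 and 25, BSF_C 26.3, 27.6 and 25.7 and con 46.2, 47 and 60.6. All LSF values lay below all others. Against DSF the test gave log2 fold change -0.60, SE 0.12, adjusted p = 0.000244. Mrps27 encodes a mitochondrion-specific protein with pentatricopeptide repeats, a motif of RNA-binding proteins. Its exons overlap those of 6430562O15Rik on the other strand, so its count is uncertain. Its level was 33.4, 32 and 30.2 CPM in LSF. The DSF libraries had 48.8 and 45.1 CPM, BSF 44.6 and 45.6, BSF_C 46.7, 46 and 44.4 and con 80.5, 75.9 and 84.3. Again the LSF libraries were the lowest (log2 fold change -0.56, SE 0.09, adjusted p = 8.4e-06). Mrps5 and Mrps27 kept their calls in all 3 comparisons when any 1 library was left out.

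Mrps35, a mitochondrion-specific member, stood at 23.4, 17.2 and 20.1 CPM in LSF and 31.5 and 23.9 in DSF (log2 fold change -0.45, SE 0.13, adjusted p = 0.0101). This call was lost without LSF 2 (log2 fold change -0.35) or the DSF library marked S2 (-0.24). Mrps2, the homologue of bacterial S2, stood at 84, 85.2 and 75.7 CPM in LSF, 100.04 and 104 in DSF, 108 and 105 in BSF and 109, 109 and 112 in BSF_C. Every LSF value lay below the other feeding groups, and the difference was larger in BSF_C (log2 fold change 0.43, SE 0.06, adjusted p = 1.79e-07) than in DSF (-0.32 for LSF against DSF). Mrps6, the homologue of bacterial S6, was 22.1, 25.4 and 19 CPM in LSF and 32.8, 33.4 and 30.5 in BSF_C (log2 fold change 0.54, SE 0.10, adjusted p = 3.92e-05). Its exons overlap those of Slc5a3 on the same strand, and Slc5a3 was also higher in BSF_C than in LSF (0.71), so the counts of this pair are uncertain. Mrps11, the homologue of bacterial S11, was 5.55, 3.98 and 4.25 CPM in LSF and 7.49, 8.08 and 5.63 in BSF_C, without overlap (log2 fold change 0.62, SE 0.22, adjusted p = 0.025). This call was lost in DESeq2 (adjusted p = 0.072) and without BSF_C 1 (0.57), BSF_C 2 (0.51), LSF 2 (0.52) or LSF 3 (0.56). Its exons overlap those of Mrpl46 on the other strand, so both counts are uncertain.

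In the large subunit, Mrpl46, Mrpl47, Mrpl35 and Mrpl34 were among the members lower in LSF. Mrpl46, a mitochondrion-specific member, was measured at low level, 7.97, 6.55 and 7.97 CPM in LSF. The DSF libraries had 11.2 and 10.7 CPM, BSF 10.4 and 13.1, BSF_C 11.4, 12.1 and 11.9 and con 6.61, 6.24 and 7.14. The LSF values overlapped con and no other group. The change was largest against BSF (log2 fold change 0.66, SE 0.18, adjusted p = 0.0035). That call was lost without BSF 2 (0.47), and the one against DSF without LSF 2 (-0.46), DSF S2 (-0.51) or DSF S3 (-0.58). Mrpl47, whose product lies by the exit of the peptide tunnel, was 12.1, 14 and 17 CPM in LSF and 22.4 and 17 in DSF (log2 fold change -0.46, SE 0.15, adjusted p = 0.0241). It lost this call without LSF 1 (-0.35), LSF 2 (-0.45) or DSF S2 (-0.25). Its exons overlap those of Actl6a and Ndufb5 on the other strand, so its count is uncertain. Mrpl35, with a bacterial homologue, was 11.6, 14.1 and 14.2 CPM in LSF and 20.9 and 18.1 in BSF (log2 fold change 0.54, SE 0.14, adjusted p = 0.00261), and lost the call without BSF 1 (0.44). Mrpl34, the most abundant member per length, was 116, 118 and 121 CPM in LSF, 147 and 137 in DSF, 168 and 140.2 in BSF and 165, 161 and 161 in BSF_C. Its rise in BSF_C over LSF had the smallest p of the members in that comparison (log2 fold change 0.46, SE 0.06, adjusted p = 5.44e-08).

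Mrpl39 (chromosome 16, 84717576 to 84735742, minus strand) ran against the rest. It encodes a mitochondrion-specific protein of the large subunit and stood at 17.7, 17 and 14.2 CPM in LSF. The BSF libraries had 10.6 and 11.5 CPM, BSF_C 10.1, 13.8 and 11.3, DSF 10.1 and 13.9 and con 15.3, 11.4 and 9.90. It was lower than LSF in BSF (log2 fold change -0.56, SE 0.17, adjusted p = 0.01) and in BSF_C (log2 fold change -0.48, SE 0.15, adjusted p = 0.0111). Against DSF its estimate was 0.45 and was not called (adjusted p = 0.0673). The call against BSF was lost without BSF 1 (-0.51) or BSF 2 (-0.62), and that against BSF_C without BSF_C 1 (-0.38) or LSF 1 (-0.41).

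**Figure D3:**
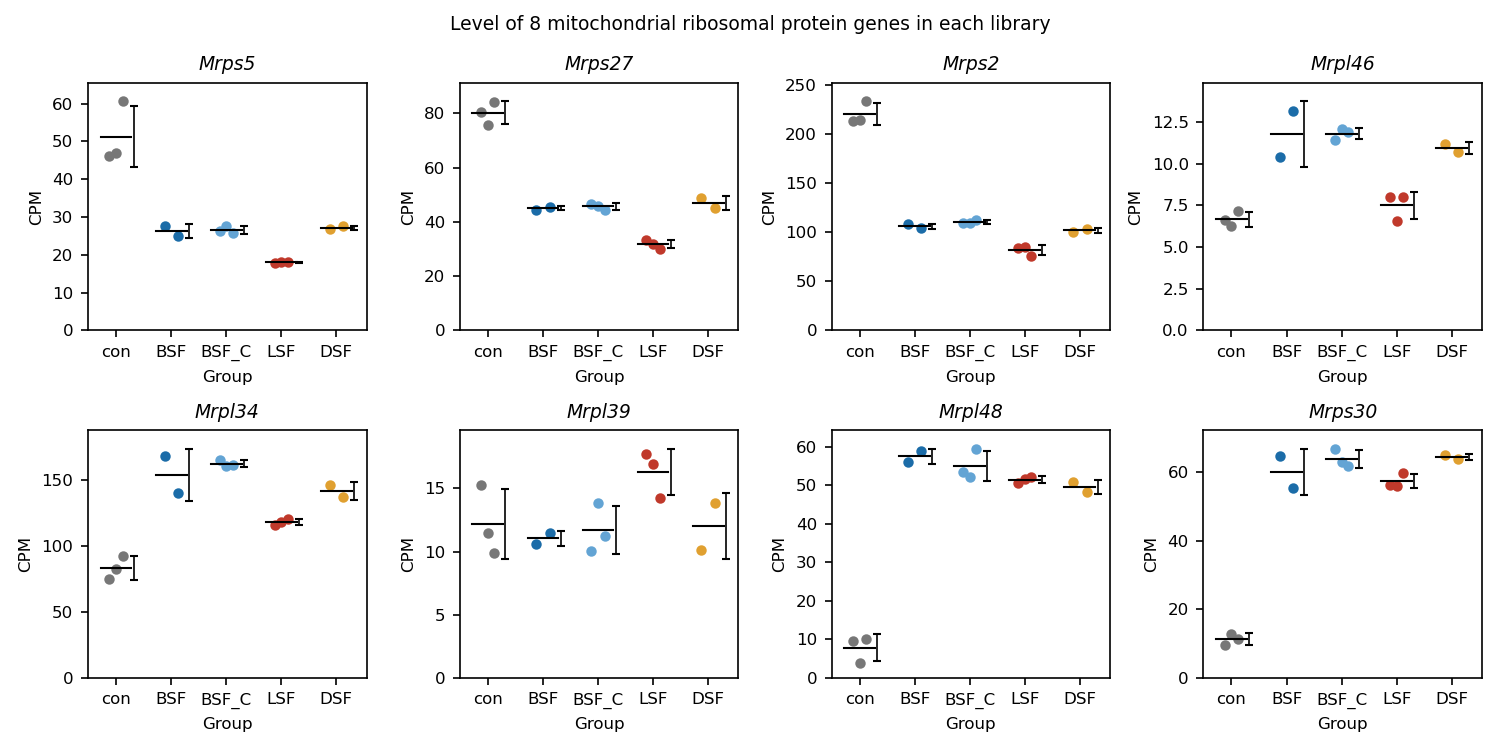
CPM of 8 members in each library (points), with the group mean (line) and SD (bar). Mrps5, Mrps27, Mrps2 and Mrpl34 are lower in LSF than in the other 3 feeding groups, Mrpl39 is higher there, and Mrpl48 and Mrps30 separate con from all other groups.

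The members named as examples of each functional part gave the following. Mrps12, of the decoding centre, was not called in LSF against DSF (log2 -0.15, adjusted p = 0.552), nor was Mrps22, whose loss impairs assembly of the small subunit (log2 -0.09, adjusted p = 0.888). Mrps7, of the head of the small subunit, was lower in LSF (log2 -0.29, adjusted p = 0.036), as was Mrps34 (log2 -0.20, adjusted p = 0.0411). Neither call held in DESeq2 (adjusted p = 0.0695 and 0.0845). Both were lost without LSF 1, LSF 2 or the DSF library marked S2 (-0.32 for Mrps7 and -0.10 for Mrps34 without the last), that of Mrps7 also without S3 (-0.27), and that of Mrps34 without BSF_C 2 (-0.20). In the large subunit, Mrpl3 near the peptidyl transferase centre (log2 -0.06, adjusted p = 0.815), Mrpl11 at the base of the stalk (log2 -0.35, adjusted p = 0.125) and Mrpl12 of the stalk itself (log2 -0.12, adjusted p = 0.318) were not called against DSF. Nor were Mrpl44 (log2 -0.15, adjusted p = 0.549) and Mrpl45, the membrane anchor (log2 -0.24, adjusted p = 0.106). Mrpl45 was 39.5, 38.5 and 38.3 CPM in LSF and 42 and 49.9 in DSF, with no overlap, and passed the threshold when only the 2 groups were fitted (adjusted p = 0.0364).

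The starts of these genes lie close to other genes more often than most. A protein-coding gene on the other strand starts within 1000 bases of 33 of the 78 (42.3%), against 10.7% of 21676 protein-coding genes. Mrpl46 and Mrps11 form such a pair among themselves, at 412 bases. Of the 33, 11 were called lower in LSF than in DSF. Of the 29 neighbours tested that are no members, 2 were called lower and 1 higher, with a median log2 fold change of -0.06 beside -0.18 for the 33. Ptcd2, 81 bases from Mrps27, was not called (log2 -0.19, adjusted p = 0.308). Exons of 33 members, among them Mrps27, Mrpl47, Mrps30, Mrpl10 and Mrpl49, overlap those of another gene. The strand setting of the counting is not given in the sources used here. Of the 45 members without such overlap, 7 were lower in LSF than in DSF (15.6%), 9 lower than in BSF and 10 lower than in BSF_C. Over all genes tested, the shares lower in LSF were 6.91%, 13.4% and 15.6%. The rest of the 18 members called lower than in DSF have such overlap, so their counts are uncertain.

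Promoter sequence is shown for 4 of the 16 members called in all 3 comparisons, those with the largest fall against DSF and at least 80 bases in a row, within 250 before the RefSeq start, that lie outside annotated exons. All are plus-strand stretches of GRCm38.p6 from RefSeq, printed 5′ to 3′, with capitals for the motifs searched. The stretch of Mrps27 is the whole interval between its exons and those of Ptcd2.
Mrps27, chr13:99344706-99344785: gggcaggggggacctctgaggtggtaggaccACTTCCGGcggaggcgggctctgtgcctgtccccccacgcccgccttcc
Mrpl16, chr19:11770165-11770390: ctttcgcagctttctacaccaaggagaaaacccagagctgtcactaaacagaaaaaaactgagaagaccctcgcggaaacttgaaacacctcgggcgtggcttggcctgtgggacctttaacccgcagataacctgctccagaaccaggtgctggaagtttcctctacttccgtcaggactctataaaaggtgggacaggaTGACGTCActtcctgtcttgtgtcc
Mrpl9, chr3:94443086-94443317: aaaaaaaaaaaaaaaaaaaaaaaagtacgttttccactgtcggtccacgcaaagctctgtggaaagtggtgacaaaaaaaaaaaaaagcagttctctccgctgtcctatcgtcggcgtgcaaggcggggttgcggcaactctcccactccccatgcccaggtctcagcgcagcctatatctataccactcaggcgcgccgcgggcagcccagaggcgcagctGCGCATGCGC
Mrps2, chr2:28467816-28468065: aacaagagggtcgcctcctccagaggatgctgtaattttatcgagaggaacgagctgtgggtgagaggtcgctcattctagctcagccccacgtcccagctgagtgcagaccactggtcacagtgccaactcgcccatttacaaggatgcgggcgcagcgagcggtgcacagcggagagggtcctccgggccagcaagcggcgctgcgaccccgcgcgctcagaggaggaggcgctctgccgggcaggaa
Mrps27 holds the ETS motif, bound by GABP, on the reverse strand at -49 to -42 from the start. Mrpl16 holds the cyclic AMP response element at -49 to -42, and Mrpl9 the NRF1 motif on both strands, in overlap, within -28 to -19. Mrps2 holds none of the 6 motifs. The window of Mrps27 also holds the YY1 motif at 15 to 23, past the start and not printed.

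Windows from 250 bases before to 50 after the start were found for 69 members and for 11072 tested genes in all, and both strands were searched. NRF1 and GABP are known as activators of nuclear genes for mitochondrial proteins. The ETS motif (CCGGAAGT) was in 15.9% of member windows and 7.73% of all, the NRF1 motif (CGCATGCGC) in 10.1% and 3.46%, and the YY1 motif (AAGATGGCG) in 11.6% and 2.95%. The cyclic AMP response element (TGACGTCA) was in 2.9% and 3.08%, the E-box (CACGTG), a site of MYC and of clock factors, in 7.25% and 9.75%, and the SP1 motif (GGGGCGGGG) in 18.8% and 21.2%. Among the 12 windows of members called lower in LSF in all 3 comparisons, 2 held the ETS motif, 1 the NRF1 motif and 3 the YY1 motif. The E-box was in 2 of these 12, the SP1 motif in 3 and the cyclic AMP response element in 1. These are matches of letters and not measured binding. Of 10 regulators listed, among them Nrf1, Gabpa, Yy1, Myc and Sp1, none was called in LSF against DSF. Ppargc1a and Esrra, a coactivator and a nuclear receptor of mitochondrial gene programmes, were lower in BSF than in LSF. Ppargc1a stood at 48.2, 44.6 and 45.7 CPM in LSF and 31.8 and 35.3 in BSF (log2 -0.46, adjusted p = 0.000482), and Esrra at 401, 393 and 388 and 334 and 336 (log2 -0.24, adjusted p = 0.00126).

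Other parts of the mitochondrial translation machinery were counted in the same way. Of the 5 ribosome subunits with other names, 2 were lower in LSF than in DSF, Gadd45gip1 of the large subunit (log2 -0.41, adjusted p = 0.000185) and Ptcd3 of the small subunit (log2 -0.40, adjusted p = 0.0159). Dap3, a small-subunit protein, was 19.1, 14.9 and 15.9 CPM in LSF and 22.7, 21 and 21.7 in BSF_C (log2 0.38, adjusted p = 0.011), and LSF against DSF gave -0.22 (adjusted p = 0.334). Of 17 translation factors, 1 was lower in LSF than in DSF: Tufm, the elongation factor that brings aminoacyl-tRNA to the ribosome. It stood at 199.6, 202 and 199 CPM in LSF, 296 and 286 in DSF, 276 and 261 in BSF and 295, 282 and 278 in BSF_C (log2 fold change -0.54, SE 0.06, adjusted p = 4.97e-10). Of 20 genes for mitochondrial aminoacyl-tRNA synthesis, 3 were lower in LSF than in DSF and 8 lower than in BSF (6.91% and 13.4% of all genes). Yars2, the tyrosyl-tRNA synthetase, was 25.7, 20.6 and 21.4 CPM in LSF and 37.7 and 34.5 in BSF (log2 0.67, adjusted p = 9.59e-06).

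Of 26 genes of ribosome assembly and rRNA modification, 1 was lower and 2 were higher in LSF than in DSF. The 2 higher were Malsu1, an assembly factor of the large subunit (log2 0.67, adjusted p = 0.00423), and Trub2, a pseudouridine synthase (log2 0.31, adjusted p = 0.00727). Of 16 genes of protein import and folding, 4 were lower in LSF than in DSF, 5 lower than in BSF and 6 lower than in BSF_C. Of all genes tested, 6.91%, 13.4% and 15.6% were lower in LSF in these comparisons. Hspd1, the matrix chaperonin, was 209, 189 and 211 CPM in LSF and 268 and 254 in DSF (log2 -0.36, adjusted p = 1.21e-05), and Tomm40, the channel of the outer membrane, 74, 81.1 and 76 and 95.2 and 99.7 (log2 -0.34, adjusted p = 0.000558). Of 12 genes of mitochondrial DNA upkeep and transcription, 1 was lower, Tfam (log2 -0.24, adjusted p = 0.0454), which packages mitochondrial DNA.

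The genes whose products mitochondrial ribosomes work beside or make showed other counts. Of 79 nuclear-encoded respiratory chain genes tested, 2 were lower and 1 was higher in LSF than in DSF (median log2 fold change -0.03). Of 96 cytosolic ribosomal protein genes tested, 4 were lower and 1 was higher (median -0.05). Of 13 mitochondrially encoded proteins, 0 were lower and 2 higher than in DSF, and 10 were lower in BSF than in LSF. Levels of these 13 in BSF ran from 14.9 CPM (mt-Nd3) to 54008 (mt-Co1). How reads that map to several places were counted is not given, so their counts are uncertain. Of all genes tested, 6.91% were lower and 8.97% higher in LSF than in DSF, and 15.9% were lower in BSF than in LSF. The difference between these lists and the members was not tested.

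**Figure D4:**
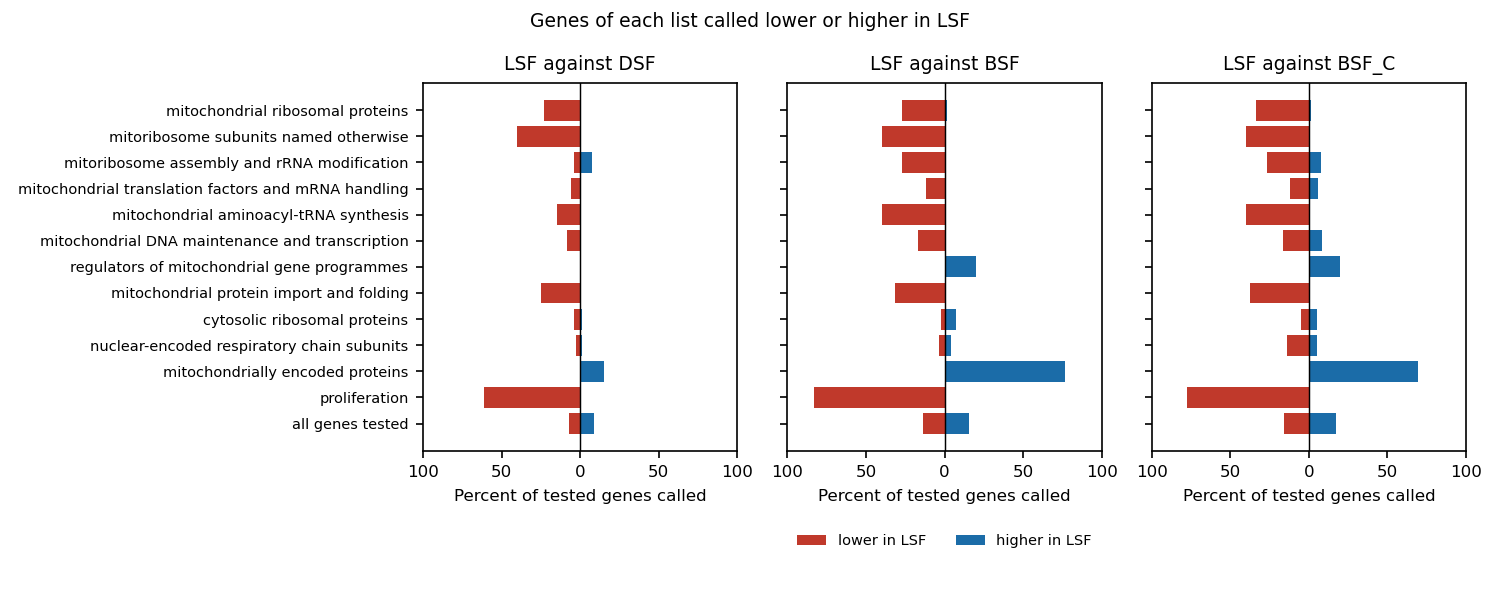
Percent of the tested genes of each list called lower (red, to the left) or higher (blue, to the right) in LSF, against DSF, BSF and BSF_C, with all genes tested in the bottom row. Of the ribosomal protein members 23.1% were lower than in DSF, beside 61.1% of the proliferation markers and 2.53% of the respiratory chain genes.

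Cell type markers differed in the LSF libraries too. The 18 proliferation markers summed to 852 to 866 CPM in LSF and 1075 to 1214 in the other feeding groups. Of these, 11 were lower in LSF than in DSF, 15 lower than in BSF and 14 lower than in BSF_C (6.91%, 13.4% and 15.6% of all genes). Mki67, a marker of dividing cells, was 217, 209 and 216 CPM in LSF and 291 and 265 in DSF. The 12 stem and crypt base markers summed to 1826 to 1844 CPM in LSF and 2285 to 2439 in the others, with 5 of 12 lower than in DSF. The 12 enterocyte markers summed to 36221 to 36986 CPM in LSF, against 24609 to 25096 in DSF and 29828 to 32119.6 in BSF and BSF_C, and all 12 were higher than in DSF. The 11 leukocyte markers summed to 226 to 234 CPM in LSF, 236 to 244 in DSF and 161 to 191 in BSF and BSF_C. The 8 heart muscle markers summed to 332 to 370.2 CPM in LSF, 366 to 371 in DSF and 188 to 206 in BSF and BSF_C. Of 9 epithelial identity genes, among them Epcam and Cdh1, 1 was higher and 5 were lower in LSF than in DSF. The part of these cell types in the level of the ribosomal protein genes was not tested.

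Among BSF, BSF_C and DSF no member passed the threshold. Between BSF_C and BSF, edgeR called 0 of 78 members, where 0.105% of all genes were called higher and 0.0280% lower. At an unadjusted p under 0.05 it had 2 higher and 0 lower, and DESeq2 called 0 (2 higher and 0 lower of 14300 genes). Estimates ran from -0.39 (Mrps18c) to 0.35 (Mrps16), both genes of few counts, with a median of 0.05. Between BSF and DSF, 0 members were called, beside 5.77% of all genes higher and 6.26% lower. At an unadjusted p under 0.05, 0 were higher and 2 lower, and DESeq2 called 0 (481 higher and 628 lower of 14300 genes). Estimates ran from -0.62 (Mrpl54) to 0.48 (Mrpl13), with a median of 0.005. Between BSF_C and DSF, 0 members were called, beside 5.87% and 5.99% of all genes. At an unadjusted p under 0.05, 5 were higher and 1 lower, and DESeq2 called 0 (569 higher and 644 lower of 14300 genes). With 2 or 3 libraries a group, a count of 0 does not show that levels were alike.

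Breakfast skipping was also set against the other skipped meals together. Taken singly, BSF against DSF gave 0 members higher and 0 lower (5.77% and 6.26% of all genes). BSF against LSF gave 21 higher and 1 lower (13.4% and 15.9%). BSF against their mean gave 5 members higher and 0 lower (9.87% and 11.5% of all genes). At an unadjusted p under 0.05, 16 were higher and 1 lower, and DESeq2 called 2 and 0 (916 and 1310 of 14300 genes). The 4 without overlap between groups were Mrpl35 (log2 0.35, adjusted p = 0.0442), Mrps6 (log2 0.30, adjusted p = 0.0348), Mrpl37 (log2 0.24, adjusted p = 0.0286) and Mrps2 (log2 0.22, adjusted p = 0.00965). The fifth was Mrpl34 (log2 0.25, adjusted p = 0.00356), whose groups overlapped and which is named after its values were seen. The count was 3 without LSF 1, 8 without con 3 and 10 with all con libraries left out. Over all genes, 1235 of 14243, 1764 of 14264 and 1894 of 14051 were higher in these fits, against 1411 of 14300 in the main fit. The count of members fell when a BSF or DSF library was left out, which leaves a single library in that group.

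Against the control group the members went both ways. In BSF, 28 were called higher and 12 lower (38.3% and 31.9% of all genes). BSF_C had 36 higher and 14 lower (39.8% and 33.2%), LSF 24 and 20 (38.9% and 33.0%) and DSF 30 and 14 (36.6% and 31.1%). As shares of the 78, 30.8% to 46.2% were higher and 15.4% to 25.6% lower. The 4 comparisons share the con libraries. The members' median log2 fold change was 0.23 for BSF, 0.27 for BSF_C, 0.07 for LSF and 0.17 for DSF. After removing trends with GC content and transcript length, these medians became -0.02, 0.01, -0.21 and -0.04, and the calls 23 higher and 21 lower, 23 and 22, 19 and 30, and 22 and 21. Of 14300 genes, 4818 and 4782, 5064 and 4964, 5138 and 4997, and 4666 and 4625 were then called higher and lower. With library totals alone, which moved the median of all genes in BSF from 0.11 to 0.29, the calls were 44 and 9, 47 and 8, 29 and 17, and 38 and 8. Over all 14300 genes they were 6522 and 3612, 6720 and 3834, 6184 and 4217, and 6214 and 3569. Without con 3, the median was 0.15 in LSF and 0.27 in DSF. None of the 4 medians changed sign when any 1 library was left out.

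Of the members, 22 were called higher than con in all 4 groups, 12 lower in all 4, and 16 in none. These are 28.2%, 15.4% and 20.5% of the members, beside 29.9%, 26.3% and 14.9% of all genes tested. Mrpl48 (chromosome 7, 100545751 to 100608301, minus strand) differed most. Its product is a mitochondrion-specific protein of the large subunit, and its level was 9.50, 3.74 and 10.1 CPM in con and 48.3 to 59.5 in the others (log2 fold change 2.83, SE 0.14, adjusted p = 1.37e-24 in BSF_C). Its exons overlap those of Rab6a on the other strand, which changed far less (0.30), and a pseudogene bears its name, so its count is uncertain. Mrps30, which lies in the large subunit despite its name, was 9.50, 12.9 and 11.3 CPM in con and 55.4 to 66.9 elsewhere (log2 fold change 2.51, SE 0.12, adjusted p = 2.06e-26 in BSF_C). Its exons overlap those of B430218F22Rik on the other strand. Mrps34 was 51.6, 54.5 and 59.7 CPM in con and 135 to 172 elsewhere (log2 fold change 1.52, SE 0.07, adjusted p = 4.51e-25 in BSF_C), and its exons overlap those of Nme3 and Mapk8ip3. Mrpl4, which lines the peptide tunnel, was 11.4, 13.9 and 11.5 CPM in con and 31.2 to 37.2 elsewhere (log2 fold change 1.52, SE 0.12, adjusted p = 5.64e-16). Mrps26, a mitochondrion-specific small-subunit member, was 28.1, 22.9 and 25.3 CPM in con and 58.7 to 80.8 elsewhere, and Mrpl18 was 18.4, 16.8 and 13.4 and 32.2 to 47.1. For each of these genes con did not overlap any other group.

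In BSF, BSF_C and DSF the largest called fall against con was that of Mrps2, 213, 214 and 233 CPM in con and 100.04 to 112 in these groups (log2 fold change -0.996, SE 0.06, adjusted p = 3.14e-21 in BSF_C). In LSF it was that of Mrps5, followed by Mrps2 (-1.43) and Mrps27. Mrps5 had a log2 fold change of -1.51 in LSF and from -0.96 to -0.91 in the others, and Mrps27 of -1.33 and from -0.83 to -0.77. Mrpl10, of the stalk, was 144, 136 and 173 CPM in con and 76.2 to 88.5 elsewhere (log2 fold change -0.89, SE 0.07, adjusted p = 1.08e-16 in BSF_C). Mrpl49, a mitochondrion-specific member, was 124, 110.4 and 131 CPM in con and 59.9 to 75.1 elsewhere (log2 fold change -0.72, SE 0.07, adjusted p = 2.03e-13 in BSF_C). Exons of Mrpl10 overlap those of Gm11574, and exons of Mrpl49 those of Syvn1, on the other strand. Mrps2, Mrps5 and Mrps27 were thus highest in con and lowest in LSF. Of the examples by functional part, Mrps34 and Mrpl44 were higher than con in all 4 groups. The call of Mrpl44 in LSF (0.36) was lost without con 2 (0.27), con 3 (0.27) or LSF 2 (0.34). Mrps7 was lower than con in LSF alone among the 4 tests (log2 -0.32, adjusted p = 0.00279), a call lost without con 3 (-0.19).

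**Figure D5:**
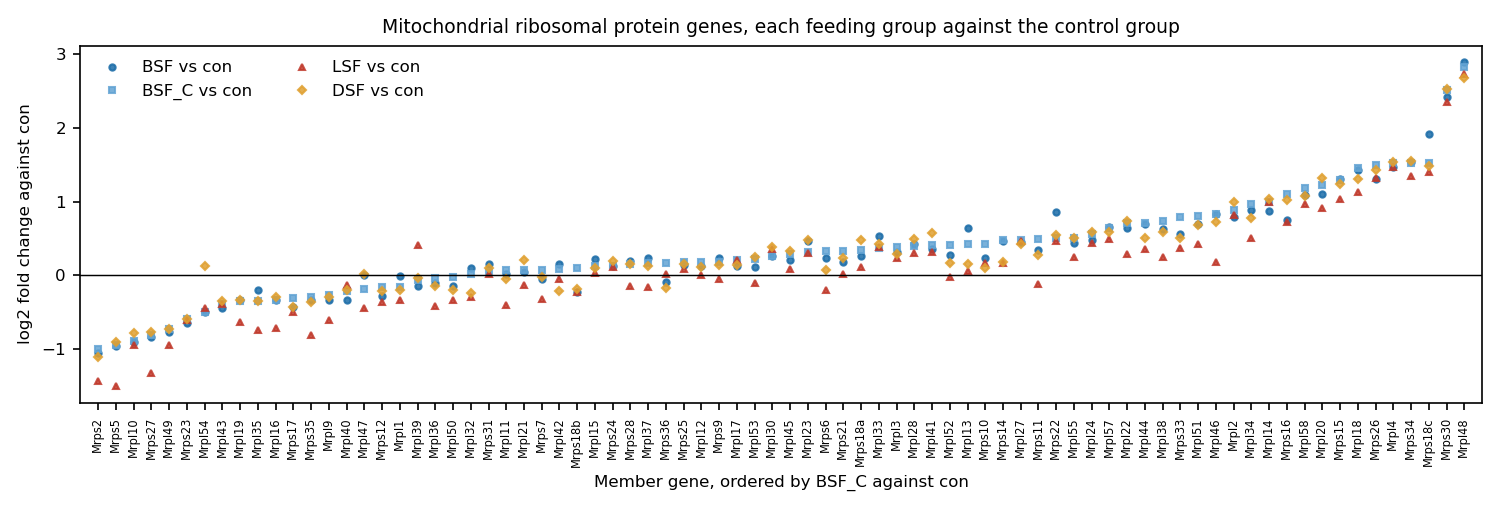
The log2 fold change of each of the 78 genes against con in the 4 feeding groups, ordered by the BSF_C estimate. Mrpl48 and Mrps30 stand at the right, between 2.35 and 2.89, Mrps2 and Mrps5 at the left, and LSF (red triangles) is the lowest of the 4 marks for most genes.

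Among the related lists, 73 of 96 cytosolic ribosomal protein genes were higher in BSF than in con and 8 lower, and 60 of 79 respiratory chain genes were higher and 10 lower. Mitochondrially encoded proteins went the other way, with 3 of 13 higher and 9 lower. Aminoacyl-tRNA synthesis held 5 of 20 higher and 9 lower, with the largest opposite changes in Yars2 (log2 3.30, adjusted p = 1.39e-22) and Lars2 (log2 -1.93, adjusted p = 1.01e-16), the tyrosyl- and leucyl-tRNA synthetases. Tufm was 143, 134 and 158 CPM in con and 276 and 261 in BSF (log2 0.89, adjusted p = 9.74e-18), and Chchd1, a small-subunit protein, 2.68, 3.33 and 3.46 and 16 and 12.9 (log2 2.19, adjusted p = 2.76e-12). Of the regulators 2 of 10 were higher and 6 lower, among them Myc (log2 -1.05, adjusted p = 3.57e-17) and Pprc1, a coactivator of the PGC-1 family (log2 -1.29, adjusted p = 3.24e-21). Skin and enterocyte markers separate con from BSF as given above, and other marker lists did too. Stem and crypt base markers summed to 3983 to 4080 CPM in con and 2305 to 2439 in BSF. Leukocyte markers summed to 97.7 to 108 and 161 to 177, and heart muscle markers to 120 to 133 and 191 to 206. Epithelial identity genes summed to 9039 to 10301 and 7625 to 7848. The sums of the proliferation markers overlapped. The part of these cell types in the differences from con was not tested.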

How the data were processed

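RNA of sorted jejunal epithelial cells was measured in 13 libraries of 5 groups. The deposited table holds raw read counts per gene symbol, and the submitters' processing notes name STAR 2.7.2e as well as cutadapt 2.9, FastQC 0.11.8 and DESeq2 1.32.0, with the builds GRCm38 and mm10. The annotation, strand setting and treatment of reads that map to several places are not given in the sources used here. Members with overlapping exons or pseudogenes are therefore uncertain. From these counts, edgeR 4.0.16 (R 4.3.3) fitted all libraries by group, with TMM scaling, filterByExpr, quasi-likelihood tests, Benjamini-Hochberg adjustment over 14300 genes and a threshold of 0.05. A log2 fold change has the SE that its F statistic implies. The common biological coefficient of variation was 4.87%. CPM values are scaled by TMM.

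Positions, overlaps, transcript lengths and GC content came from GENCODE M21 (GRCm38), matched by symbol for 21689 symbols and all 78 members, and promoter windows from RefSeq (GRCm38.p6) for 69 members. The members and lists were chosen with earlier results of these data known, and 4 comparisons (BSF or BSF_C against LSF or DSF) were added after seeing the data. Named members were, for each comparison, up to 5 called rises and 5 called falls of the largest size with 5 CPM or more and no overlap between groups, and 9 examples by role. From each list, up to 2 called genes of smallest p were taken, with Dap3, Tufm and Tfam always. The script was tested on simulated data. Alternatives were DESeq2's size factors, library totals alone, DESeq2 1.42.0 (Wald test), no filter, only the groups compared, con left out, replicate number as a block, removal of GC and length trends by lowess, and leaving out each library. Same-numbered libraries did not deviate together (r from -0.058 to 0.025), so the numbers do not pair samples. The DSF columns are marked S2 and S3 while the titles number these libraries 1 and 2, so the columns were used without a number.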

Additional observations from a re-analysis of the deposited data

How the results depend on the processing

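With library totals alone, the median member log2 fold change against con was 0.4025 for BSF, 0.4413 for BSF_C, 0.1693 for LSF and 0.3326 for DSF, with 44 members higher in BSF and 8 lower in each of BSF_C and DSF. Of all 14300 genes, 6522 were higher in BSF, 3834 lower in BSF_C and 3569 lower in DSF. Members higher in BSF than the mean of LSF and DSF were then 12, and those higher in BSF_C than DSF 1. Over all 14300 genes these counts were 2015 and 903. That scaling moved the share of higher among all genes called in LSF against DSF from 56.5% to 38.0%. With GC and length trends removed, the medians against con were -0.0222, 0.0094, -0.2141 and -0.0391, with 21 members lower in BSF and 23 higher and 22 lower in BSF_C. Of 14300 genes, 4782 were lower in BSF, and 5064 higher and 4964 lower in BSF_C. Mrpl12 was then -0.0252 in BSF_C against con. The counts higher were 8 in BSF over the mean, 1 in BSF and 1 in BSF_C over DSF, and the median of BSF against DSF was -0.0014. Over all genes the counts higher were 1356, 769 and 865. DESeq2's Wald test gave 2 for BSF over the mean, 11 lower in LSF than DSF, and a median of -0.0030 for BSF against DSF, which was -0.0035 with its size factors. Over all 14300 genes that test called 916 higher in BSF than the mean and 766 lower in LSF than DSF. With only the groups compared, and likewise with con left out, 10 members were higher in BSF than the mean, 1 in LSF than DSF, and in BSF_C against DSF 1 was higher and 1 lower. Of all genes, 1900 of 13804 and 1894 of 14051 were higher in BSF than the mean.

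When 1 library was left out, the number of all genes called changed too, and the ranges for members were as follows. The median was 0.0478 to 0.1488 in LSF and 0.1604 to 0.2694 in DSF against con, and -0.0309 to 0.0226 in BSF against DSF. Members higher in BSF than the mean were 0 to 8. In LSF against DSF, 0 to 1 were higher and 5 to 20 lower. In BSF against LSF, 12 to 23 were higher and 0 to 1 lower, in BSF_C against LSF 0 to 1 were lower, and in BSF_C against DSF 0 to 1 were higher and 0 to 1 lower. Mrps22 ranged from -0.2420 to 0.0215 (without LSF 3) in LSF against DSF. In BSF_C against LSF it ranged from -0.0750 (without LSF 3) to 0.1885, with -0.0696 without BSF_C 2 and -0.0002 without LSF 2. With the replicate block, counts of members higher and lower were 27 and 13 in BSF, 35 and 13 in BSF_C and 24 and 20 in LSF against con, 0 and 0 in BSF_C against BSF, 21 and 1 in BSF against LSF, and 26 and 1 in BSF_C against LSF. Over all 14241 genes then tested, the counts against con were 5240 and 4489, 5530 and 4754, and 5414 and 4722. For the other 3 comparisons, in the same order, they were 14 and 4, 1619 and 1979, and 2074 and 2296. DSF columns carry no usable number, so its comparisons had no block. Of the checks of single members, 1895 kept their direction and side of the threshold, 122 fell below it, 16 passed it and 5 changed sign. The cause of these changes was not tested. Members of few counts limit what can be seen: Mrps18c had 183 counts in all libraries together.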
